A study of Mus musculus with 6 samples.

Results

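A set of 9 genes of glucocorticoid signalling was followed across the cell classes of the mouse hippocampus and across 6 single-nucleus RNA libraries. They were taken by name from the 26049 genes of the matrix: the receptors Nr3c1 and Nr3c2, the receptor cochaperone Fkbp5, the steroid enzyme Hsd11b1, and the response genes Sgk1, Tsc22d3, Zbtb16, Ddit4 and Klf9, and all 9 were found. All libraries came from male PS19 mice, which carry a human tau transgene with the P301S mutation under the mouse prion protein promoter, so the sham libraries are not from wild-type animals either. Of the 2 sham libraries, both of the right hippocampus, 1 was Sham GFP right and the other Sham VEGFC right. After injury each vector had 1 library per side, named TBI GFP right and TBI GFP left for one vector, and TBI VEGFC right with TBI VEGFC left for the other. Sham is a sham operation, TBI is a mild traumatic brain injury by controlled cortical impact over the right hemisphere, GFP and VEGFC are the genes carried by the injected adeno-associated virus (AAV), and right and left name the hippocampus that was dissected. VEGFC is a growth factor for lymphatic vessels, and the study's title names its aim as meningeal lymphatic drainage and tau pathology after injury. The labels used here give no age, time after injury, time of day at dissection or number of mice per library, and do not say whether left and right hippocampi came from the same mice. P-values therefore measure only the spread between these libraries, and this spread was estimated largely from other genes.

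Corticosterone, the main glucocorticoid of mice, acts through a pair of related nuclear receptors. The mineralocorticoid receptor, encoded by Nr3c2, binds it with high affinity and is known for its high levels in hippocampal neurons, while the glucocorticoid receptor, encoded by Nr3c1, binds it with lower affinity and is engaged as hormone rises with stress or with the daily peak. The bound receptor enters the nucleus and acts on genes with glucocorticoid response elements, among them Fkbp5, whose protein binds the receptor complex and lowers its affinity for hormone. Hsd11b1 encodes the enzyme that regenerates active corticosterone from its inert 11-keto form inside cells.

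A glucocorticoid response element is a palindrome of the half-site AGAACA spaced by 3 bases, and 2 promoter windows of the set are shown: the one with the whole motif, and the one with a half-site in a gene other than Sgk1. RefSeq promoter windows (build GRCm38.p6, each 300 bases, from 250 before to 50 after a start) were matched by symbol for 7 of the 9 genes, all but Nr3c1 and Zbtb16, with 14 windows in all. The whole motif, AGAACA, any 3 bases, then TGTTCT, which reads the same on both strands, was in 1 of the 14 windows and in 3 of all 32851 windows (0.00913%). The half-site, AGAACA or its reverse complement TGTTCT, was in 4 of the 14 windows, 3 of them of Sgk1 (which has 6) and 1 of Tsc22d3 (which has 3), and in 19.0% of all windows, counting those that hold the whole motif. Capitals mark these motifs.
Sgk1, chr10:21993640-21993939, plus strand: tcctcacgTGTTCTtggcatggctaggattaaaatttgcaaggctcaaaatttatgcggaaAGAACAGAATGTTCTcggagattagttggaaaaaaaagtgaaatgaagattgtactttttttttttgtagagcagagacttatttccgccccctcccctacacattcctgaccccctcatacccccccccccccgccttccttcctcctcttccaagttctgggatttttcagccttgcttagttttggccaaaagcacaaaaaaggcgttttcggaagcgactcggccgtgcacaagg
Tsc22d3, chrX:140600473-140600772, minus strand: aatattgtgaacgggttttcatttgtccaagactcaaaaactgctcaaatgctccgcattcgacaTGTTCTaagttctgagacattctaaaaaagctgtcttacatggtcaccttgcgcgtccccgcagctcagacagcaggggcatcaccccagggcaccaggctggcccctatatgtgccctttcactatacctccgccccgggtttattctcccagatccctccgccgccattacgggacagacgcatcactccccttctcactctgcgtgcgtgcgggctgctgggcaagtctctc
In the Sgk1 window the whole motif spans bases 21993701 to 21993715 of chromosome 10, with its first base 189 bases before the start. This start is 1 of several within Sgk1 (chr10:21882184-21999903). The half-site of the Tsc22d3 window begins 185 bases before its start. A match is a description of the letters, since no binding was measured here.

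In all 28650 nuclei were analysed (3676 to 6002 in a library). Transcripts were counted by unique molecular identifiers (UMIs), of which each library had 15358208 to 18379148, and the median nucleus of a library had 2689 to 3704. The 9 genes gave 107909 UMIs, 0.108% of the total, from 953 for Ddit4 and 1079 for Hsd11b1 to 52752 for Nr3c2. Levels are CPM, the usual depth-scaled unit: the UMIs of a gene summed over the nuclei of a class in a library, scaled by all UMIs of those nuclei. They are given as mean ± SD over the 6 libraries, which differ in injury, vector and side, and they are not compared between genes. The authors' 9 classes and 32 clusters were used, and the fixed markers of each class were checked: the summed oligodendrocyte markers were at 12570 to 13600 CPM in oligodendrocytes and 148 to 194 CPM in astrocytes, and the microglial markers at 7444 to 8316 CPM in microglia. Inhibitory markers were at 1119 to 1388 CPM in inhibitory and 66.8 to 82.7 in excitatory neurons, while the excitatory list, which holds genes of neurons in general, separated them less (4172 to 4408 CPM in excitatory, 3348 to 3540 in inhibitory neurons). The class named fibroblasts held fibroblast markers at 2239 to 2579 CPM with endothelial markers at 343 to 503 CPM, among which Vwf was at 0. Choroid plexus markers were at 412 to 967 CPM in oligodendrocytes and 318 to 725 CPM in astrocytes. In all, 91 cell barcodes were shared between libraries (182 nuclei).

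Nr3c1 (chr18:39410545-39519421, minus strand, mm10 with GENCODE M21 gene bounds, as for all genes) was highest in microglia and lowest in neurons. It was at 279.5 ± 25.0 CPM in microglia (lowest library 241, median 282, highest 307), 212 ± 62.5 in fibroblasts, 198 ± 7.59 in oligodendrocytes, 153 ± 15.6 in astrocytes, 138 ± 19.9 in oligodendrocyte precursors (OPC) and 134 ± 10.7 in choroid plexus epithelium. It was at 82.2 ± 7.03 CPM in excitatory neurons, 81.8 ± 18.2 in mixed neurons and 46.3 ± 5.59 in inhibitory neurons. Of the 8 steps between neighbouring classes in this order, 3 were larger than the spread, with ranges over libraries that did not touch: oligodendrocytes above astrocytes, choroid plexus above excitatory neurons, and mixed above inhibitory neurons. Fibroblasts overlapped with both microglia and oligodendrocytes, while all microglial libraries lay above all oligodendrocyte ones, and astrocytes, OPC and choroid plexus overlapped with each other.

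Within neurons the receptor gene differed severalfold between hippocampal fields. Nr3c1 was at 101 ± 9.30 CPM in CA1-like neurons (93.0 to 118), 67.9 ± 5.63 in dentate granule-like neurons (62.1 to 77.4), 35.6 ± 6.23 in the interneuron subset (26.2 to 45.1) and 24.3 ± 2.63 in CA3-like neurons (20.5 to 28.3). These subsets are sets of the authors' clusters: excitatory cluster 1, clusters 2 and 3, inhibitory clusters 1, 3, 6 and 8, and excitatory cluster 4, in that order. Their own markers were present in every library, at 981 to 1082 CPM for CA1 and 1260 to 1443 CPM for dentate granule neurons, and at 2173 to 2453 CPM for CA3. The dentate granule list was at 44.5 to 66.0 CPM in CA1-like neurons but at 587 to 708 CPM in oligodendrocytes, so it was not particular to granule neurons. All libraries of CA3-like neurons lay below those of dentate granule-like neurons, which lay below those of CA1-like neurons, while CA3-like neurons and the interneuron subset overlapped. Among all clusters, Nr3c1 in excitatory cluster 5, at 187 CPM (95% Poisson interval 172 to 202, which covers counting error only), was next to oligodendrocytes at 197 (182 to 213).

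Nr3c2 (chr8:76899442-77245012, plus strand) was highest in excitatory neurons and lowest in oligodendrocytes, with fibroblasts second as for Nr3c1. It was at 692 ± 75.7 CPM in excitatory neurons (lowest library 620, median 662, highest 813), 518 ± 92.4 in fibroblasts, 363 ± 21.0 in inhibitory neurons and 354 ± 14.3 in astrocytes. It was at 229 ± 26.4 CPM in choroid plexus, 219 ± 42.1 in mixed neurons, 136 ± 35.5 in microglia, 129 ± 21.1 in OPC and 118 ± 21.9 in oligodendrocytes. Fibroblasts above inhibitory neurons and astrocytes above choroid plexus were the 2 neighbouring steps without overlap of libraries, and microglia, OPC and oligodendrocytes could not be ordered. By field, Nr3c2 was at 922 ± 70.9 CPM in dentate granule-like neurons (868 to 1030), 809 ± 69.2 in CA1-like neurons (741 to 905), 738 ± 26.1 in CA3-like neurons (706 to 769) and 285 ± 22.7 in the interneuron subset (256 to 312). CA1-like neurons overlapped with both other excitatory fields, and the interneuron subset lay below all 3. The single cluster with the highest level was excitatory cluster 3, one of the granule-like clusters, at 1208 CPM (interval 1185 to 1232), against 637 CPM in the other, cluster 2.

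The balance of the receptor transcripts ran over a wide range, from microglia to excitatory cluster 11, with the CA3-like cluster next to it. The log2 ratio of Nr3c2 to Nr3c1 UMIs, compared here only between clusters, was 5.31 in excitatory cluster 11 and 4.93 in the CA3-like cluster (4.76 to 5.23 over 6 libraries), 4.29 in granule-like cluster 3 (3.94 to 4.69), 3.10 in granule-like cluster 2 (2.85 to 3.28) and 2.99 in the CA1-like cluster (2.65 to 3.24). It was 1.21 in the largest astrocyte cluster and lay below 0, with more Nr3c1 than Nr3c2 UMIs, in excitatory clusters 5, 10 and 16, OPC, oligodendrocytes (-0.74, -1.13 to -0.45) and microglia (-0.99, -2 to -0.64). The CA3-like cluster did not overlap with clusters 1, 2 or 3 in any library. Excitatory cluster 11 had 280 nuclei and only 39 Nr3c1 UMIs, so its range was 4.64 to 7.16 over 5 libraries. Excitatory neurons were not uniform in Nr3c2, which was at 114 CPM in cluster 10 and 124 CPM in cluster 5. In OPC the range of the ratio spanned 0 (-0.77 to 0.32), and cluster 16 had only 7 and 6 UMIs.

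**Figure D1:**
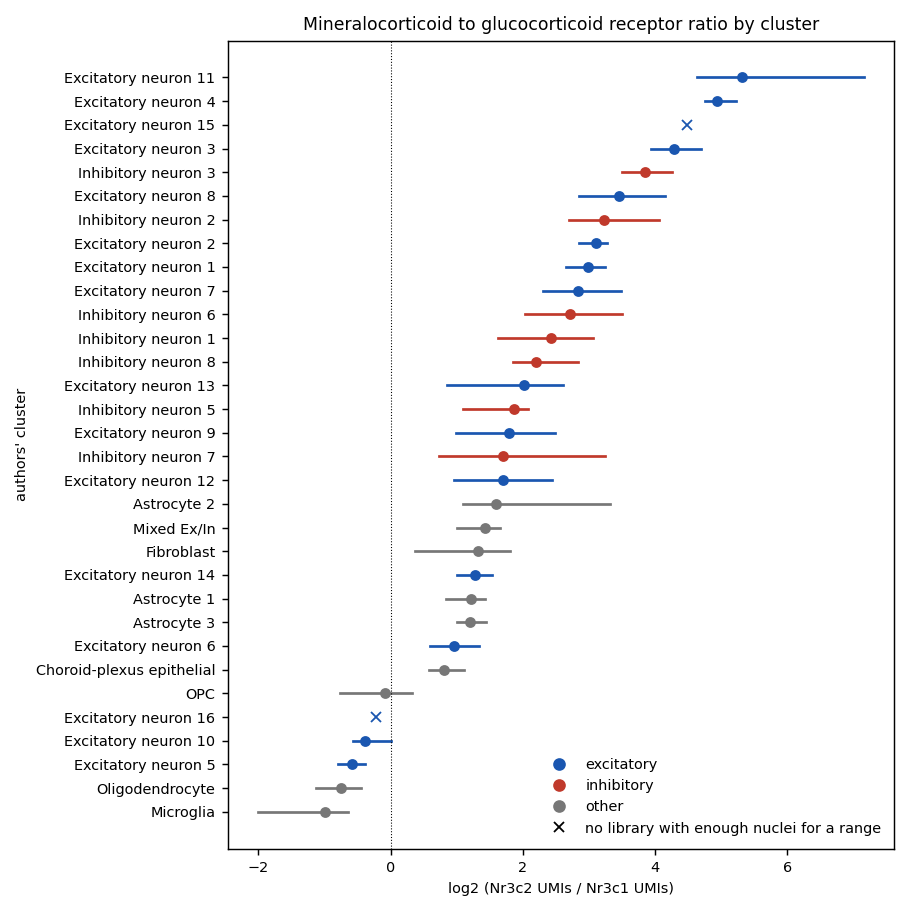
The log2 ratio of Nr3c2 to Nr3c1 UMIs (x axis) in each of the authors' 32 clusters (y axis), with points for all libraries together and lines from the lowest to the highest library with at least 20 nuclei. Excitatory cluster 11 (5.31) and the CA3-like cluster 4 (4.93) stand at the top, and oligodendrocytes (-0.74) and microglia (-0.99) at the bottom.

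Over the 30 clusters with at least 100 nuclei, the 2 receptor genes ran against each other (Pearson r -0.49 on log2 CPM, and -0.46 over the 22 neuron clusters). These are descriptions over clusters of the same 6 libraries, without a p-value. Of 10110 genes with a mean of at least 10 CPM, those most like Nr3c1 in their levels over these clusters included Il17ra (r 0.82) and Vrk2 (0.79), and those most like Nr3c2 were Ksr1 (0.82), Arhgef25 (0.70) and Kcng2 (0.68). Fkbp5 followed Nr3c2 among the neuron clusters (r 0.67, n = 22) more closely than among all clusters (0.24, n = 30), and its r with Nr3c1 was -0.19 and 0.30.

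Fkbp5 (chr17:28399094-28517527, minus strand), the cochaperone that lowers hormone affinity of the receptor, was highest in fibroblasts and microglia and nearly missing in choroid plexus. It was at 569 ± 194 CPM in fibroblasts (380 to 922), 388 ± 97.0 in microglia (239 to 481) and 138 ± 23.7 in oligodendrocytes (104 to 161). OPC, astrocytes and excitatory neurons lay together at 81.9 ± 18.1, 81.9 ± 17.1 and 80.9 ± 5.54 CPM, mixed and inhibitory neurons lay at 60.1 ± 11.3 and 52.8 ± 3.09, and choroid plexus lay at 11.1 ± 4.55. Microglia above oligodendrocytes and inhibitory neurons above choroid plexus were the 2 steps with no overlap. Among neurons, dentate granule-like neurons at 133 ± 9.39 CPM (121 to 144.5) were above CA3-like neurons at 62.8 ± 9.41 (46.6 to 71.8) and CA1-like neurons at 60.6 ± 2.90 (55.4 to 64.1) in all libraries.

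Hsd11b1 (chr1:193221634-193264075, minus strand) was highest in astrocytes, at 60.5 ± 5.87 CPM (lowest library 50.9, median 60.3, highest 67.3). No other class passed 32.7 CPM in any library, and its mean was 15.3 in fibroblasts, 10.0 in oligodendrocytes and 2.83 to 7.61 in the rest. The step from astrocytes to fibroblasts was without overlap, and no step below it was. At least 1 library of mixed neurons, OPC, microglia, choroid plexus and fibroblasts had no UMI of the gene. Within astrocytes, cluster 1 was at 70.3 CPM (interval 63.9 to 77.1), cluster 3 at 47.2 (40.5 to 54.9) and cluster 2 at 28.7 (14.3 to 51.4). Whether the low levels elsewhere were free RNA was not tested.

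Sgk1, a kinase induced by glucocorticoids and by cell stress that acts on ion channels and transporters, was shared by choroid plexus and oligodendrocytes and nearly missing in astrocytes. It was at 492 ± 37.4 CPM in choroid plexus (424 to 526) and 439 ± 115 in oligodendrocytes (278 to 589), with libraries that overlapped. It was at 204 ± 45.4 CPM in microglia (13% of its UMIs there came from 1 nucleus), 199 ± 23.6 in OPC, 147 ± 44.3 in fibroblasts, 103 ± 13.9 in inhibitory, 88.3 ± 6.25 in excitatory and 61.7 ± 17.3 in mixed neurons, and at 5.63 ± 1.91 in astrocytes (4.13 to 9.38). Of the 4 neuron subsets, CA3-like neurons were highest at 208 ± 10.7 CPM (191 to 219.6), above the interneuron subset at 109.7 ± 6.81, CA1-like neurons at 82.6 ± 7.32 and dentate granule-like neurons at 59.4 ± 4.35, and the 4 ranges over libraries did not touch. Among neuron clusters, excitatory cluster 15 (293 CPM) and inhibitory cluster 5 (238 CPM) lay above the CA3-like cluster.

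Tsc22d3 (chrX:140539528-140600659, minus strand), which encodes the anti-inflammatory mediator GILZ, was highest in oligodendrocytes and astrocytes. It was at 102 ± 17.8 CPM in oligodendrocytes (79.8 to 121) and 61.6 ± 6.36 in astrocytes (52.9 to 69.6), without overlap. Microglia followed at 16.4 ± 11.7 CPM on 9 UMIs in all, and neurons were at 3.68 ± 0.54 (excitatory) and 5.48 ± 1.79 (inhibitory). Across the 30 clusters Tsc22d3 and Hsd11b1 had the highest r of the 36 pairs of the 9 genes (0.71), followed by Tsc22d3 and Ddit4 (0.65). Over the 22 neuron clusters alone these r were 0.39 and -0.05.

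Zbtb16 (chr9:48654297-48836222, minus strand), a zinc-finger transcription factor, was high in oligodendrocytes, fibroblasts and many neurons and almost absent from microglia and choroid plexus. It was at 309 ± 68.0 CPM in oligodendrocytes (203 to 406), 274 ± 71.2 in fibroblasts, 205 ± 20.8 in excitatory neurons, 120.0 ± 29.5 in inhibitory neurons, 117 ± 22.4 in astrocytes, 104 ± 25.3 in OPC, 37.2 ± 10.9 in mixed neurons, 11.2 ± 3.59 in choroid plexus and 6.98 ± 7.96 in microglia (5 UMIs). Inhibitory clusters ranged widely: clusters 8, 3 and 6 were at 369.7, 311 and 212 CPM, the larger clusters 1 and 2 at 57.4 and 33.0, and clusters 7 and 5 at 8.73 and 3.26. 

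Ddit4 (chr10:59949669-59951834, minus strand), a stress-induced inhibitor of mTORC1, was the gene with the fewest UMIs. It was at 42.4 ± 8.67 CPM in oligodendrocytes (32.7 to 55.8), 31.4 ± 27.6 in fibroblasts, 18.2 ± 4.26 in astrocytes and 13.1 ± 4.10 in choroid plexus, and its means lay between 5.84 and 8.65 in the other classes. No neighbouring step was without overlap. Klf9 (chr19:23141226-23168134, plus strand), a Krüppel-like factor, was at 156 ± 38.3 CPM in fibroblasts and 145 ± 13.8 in astrocytes (126 to 164), 109 ± 17.0 in oligodendrocytes, 82.8 ± 11.9 in choroid plexus, 68.6 ± 6.69 in excitatory neurons, 48.7 ± 11.6 in OPC, and 23.1 to 31.2 in the other 3 classes. Only OPC above inhibitory neurons was a step without overlap.

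**Figure D2:**
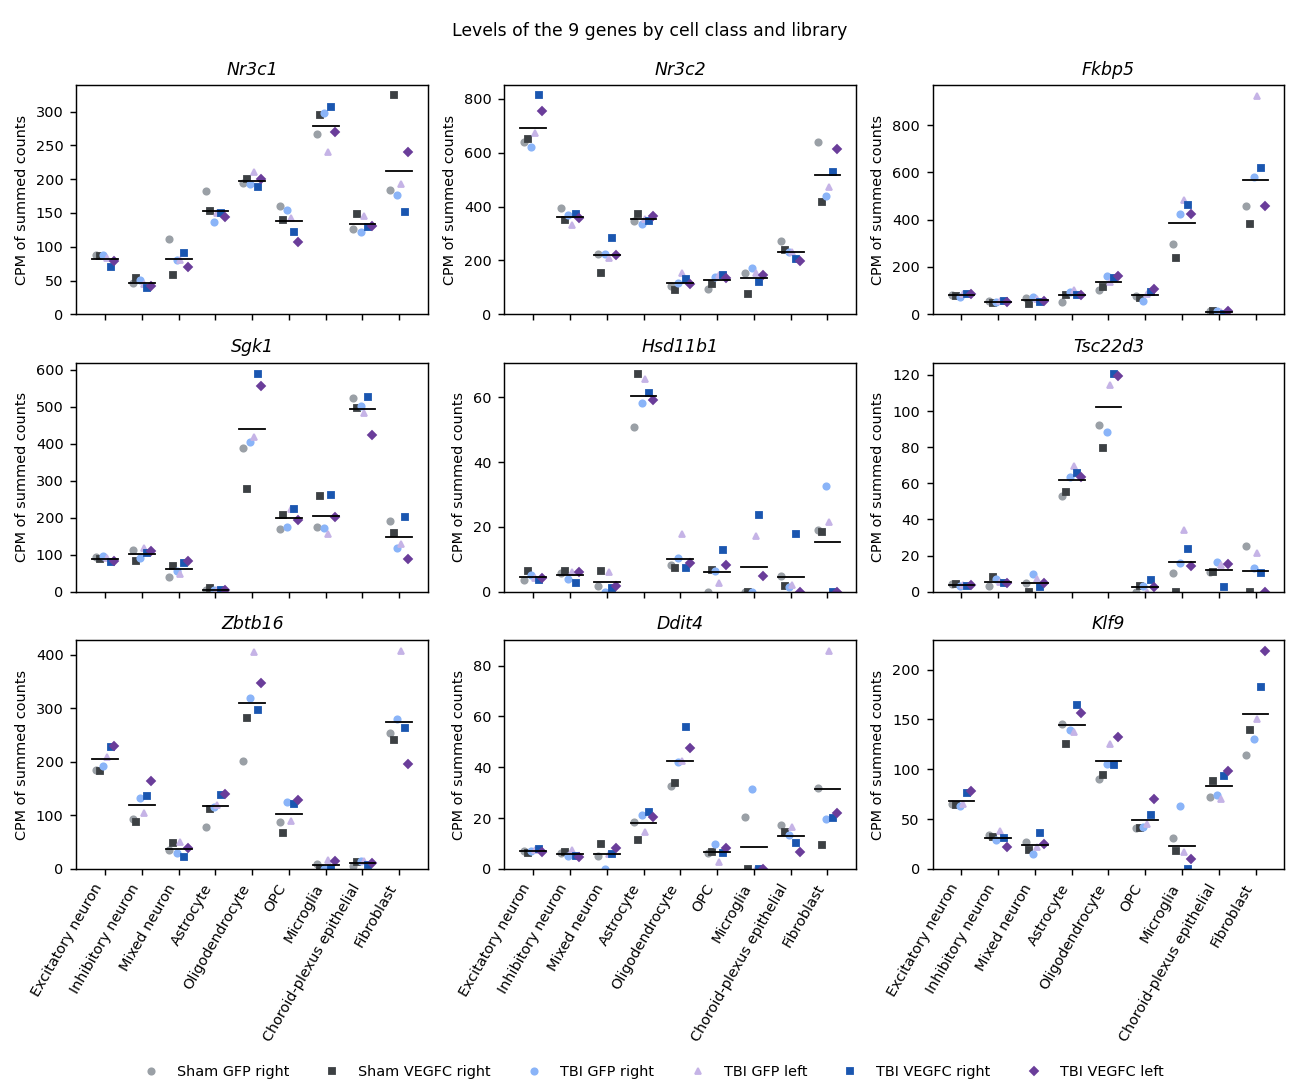
Level of each gene (y axis, CPM of summed counts, each panel with its own scale from 0) in the 9 classes (x axis). Each point is 1 library, named by its injury, vector and side, and the short line is their mean. Hsd11b1 is high only in astrocytes (50.9 to 67.3 CPM), and Sgk1 is lowest there (4.13 to 9.38 CPM).

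A small excitatory cluster was high in several of the genes at once. Excitatory cluster 15, with 55 nuclei, had the highest Zbtb16 (500.0 CPM, interval 416 to 597) and Klf9 (236, 179 to 305) of the 32 clusters, and the third highest Sgk1 (293, 229 to 369), Fkbp5 (163, 116 to 221) and Ddit4 (24.4, 8.95 to 53.1). Its Nr3c1 level was 32.5 CPM on 8 UMIs and its Nr3c2 level 724 CPM, and it had no UMI of Tsc22d3 or Hsd11b1. No library had 20 nuclei of this cluster, so it has no range over libraries and entered no comparison of conditions.

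The first comparison asked how the genes differed between injured and sham right hippocampus. Fkbp5 and Zbtb16 had higher values in several glial classes of the TBI libraries, as did Sgk1 in oligodendrocytes, but no gene in any cell set passed an adjusted p of 0.05. Of 91 gene and cell set combinations tested by edgeR's quasi-likelihood test (9 classes and 4 neuron subsets, which share nuclei with the classes), 0 were called, beside 0.082% of all 130516 tested. At an unadjusted p under 0.05 there were 12 of 91, 11 higher and 1 lower, against 5.28% of all genes (2.8% higher and 2.48% lower), and DESeq2 also called 0.
Fkbp5 in microglia was at 297 and 239 CPM in Sham GFP right and Sham VEGFC right, at 424 (right) and 481 (left) after TBI with GFP, and at 461 (right) and 424 (left) after TBI with VEGFC. Both sham libraries lay below all 4 TBI libraries, while the counts were small, at 13 to 88 UMIs per library. The fold of TBI right over sham right was 0.71 on the log2 scale (SE 0.30, adjusted p = 0.794 by edgeR).
Fkbp5 in oligodendrocytes was at 104 and 116 CPM in the sham libraries and 160.2, 137, 151 and 161 CPM in the TBI libraries, in the same order, again without overlap (log2 fold 0.52, SE 0.20, adjusted p = 0.647). In astrocytes it was at 52.9 and 80.0 CPM in the sham libraries and 95.1, 103, 79.6 and 80.7 CPM in the TBI libraries, where the groups overlapped (0.41, SE 0.16, adjusted p = 0.486). This fold was 0.87 with an adjusted p of 0.00911 without Sham VEGFC right, and 0.02 without Sham GFP right. In fibroblasts it was at 457 and 380 CPM against 581, 922, 618 and 459 CPM (0.55, SE 0.26, adjusted p = 0.987).

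Zbtb16 lay higher in all TBI libraries in 5 of the 7 classes in which it was tested, beside 6.71% of all genes over the 9 classes. In astrocytes it was at 78.4 and 112 CPM in Sham GFP right and Sham VEGFC right, and at 117, 120.1, 138 and 140.0 CPM in the TBI libraries, in the order used for microglia. The astrocyte fold was 0.46 (SE 0.13, unadjusted p = 0.000887, edgeR adjusted p = 0.15), and it lay between 0.36 and 0.59 with each library left out.
In inhibitory neurons it was at 94.0 and 87.5 CPM in the sham libraries and 132, 105, 137 and 164 CPM in the TBI libraries, in the same order (0.59, SE 0.17, adjusted p = 0.995). In the interneuron subset, which leaves out the clusters with the lowest levels (2, 5 and 7), it was at 147 and 142 CPM against 183, 185, 184 and 188 CPM, with a smaller fold of 0.37 (SE 0.12, adjusted p = 0.501). The groups did not overlap in either. The subset made up 387 of 654 and 582 of 1119 inhibitory nuclei in the sham libraries. In the TBI libraries it made up 422 of 667, 485 of 969, 388 of 562 and 342 of 411. The part of this mix in the class fold was not tested.
In oligodendrocytes Zbtb16 was at 203 and 283 CPM against 320, 406, 297 and 348 CPM (0.38, SE 0.16, adjusted p = 0.73), and in OPC at 87.7 and 67.8 CPM against 126, 89.3, 121 and 129 CPM (0.67, SE 0.28, adjusted p = 0.884). Both were without overlap, and the oligodendrocyte fold was 0.07 without Sham GFP right. In excitatory neurons, the fifth class, it was at 186 and 184 CPM against 192, 210.0, 227 and 231 CPM.

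Sgk1 in oligodendrocytes had the smallest adjusted p of the set in this comparison, with a log2 fold of 0.55 (SE 0.14, adjusted p = 0.0802 by edgeR). Its levels by library are given with the last comparison. Without Sham GFP right the fold was 1.09 (adjusted p = 1.14e-05) and without Sham VEGFC right 0.09 (adjusted p = 0.975). With limma-voom it was 0.58 (adjusted p = 0.0258), with equal numbers of nuclei 0.65 (adjusted p = 0.0221) and with DESeq2 0.55 (adjusted p = 1.00). Ddit4 in astrocytes was at 18.6 and 11.6 CPM in the sham libraries and 21.4, 14.5, 22.5 and 20.3 CPM in the TBI libraries, which overlapped (0.60, SE 0.29, adjusted p = 0.711). Hsd11b1 in the interneuron subset was the only lower one, at 5.50 and 8.13 CPM in the sham libraries and 3.84 and 2.68 CPM in the right TBI libraries on 8 and 5 UMIs (-1.03, SE 0.52, adjusted p = 0.965).

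**Figure D3:**
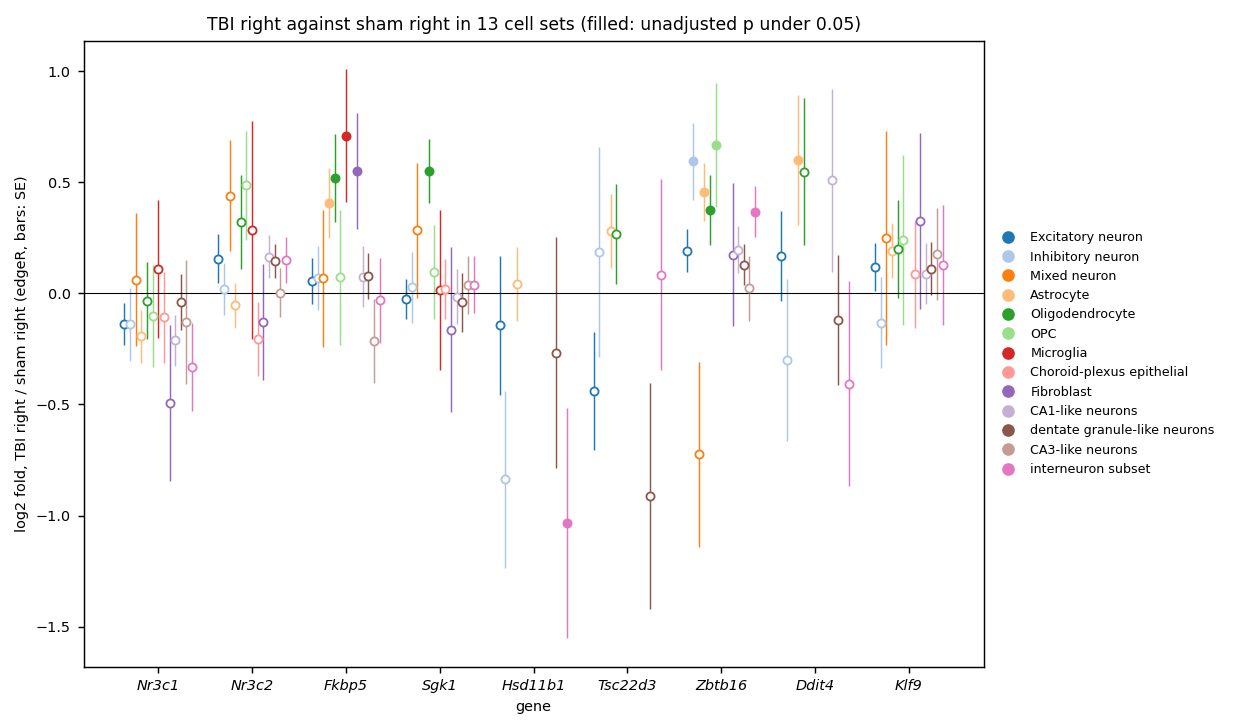
The log2 fold of TBI right over sham right (y axis, edgeR, bars are ± SE) for each gene (x axis) in the cell sets in which it was tested, coloured by cell set, with filled points at an unadjusted p under 0.05. Filled points lie above 0 for Fkbp5 (0.41 to 0.71), Sgk1, Zbtb16 (0.37 to 0.67) and Ddit4 and below 0 for Hsd11b1 in the interneuron subset (-1.03), and none passed the adjusted threshold.

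Both receptors differed little, with signs that leaned in opposite ways. Nr3c1 was lower in 11 of 13 cell sets (median fold -0.13, range -0.49 to 0.11) and Nr3c2 higher in 10 of 13 (median 0.15, -0.21 to 0.49), with no unadjusted p under 0.05 for either. Klf9 was higher in 11 of 12 (median 0.15) and Zbtb16 in 10 of 11 (median 0.20), while the median over all genes lay within 0.01 of 0 in each class. Cell sets of 1 library share its handling, and the subsets share nuclei with the classes, so these counts are not independent. Over the 9 classes, both sham libraries lay below all 4 TBI libraries in 15 of 60 combinations (25%), beside 6.71% of all genes, and above them in 3 (5%), beside 8.35%. Of the 15, 6 were in oligodendrocytes, where 6 of the 8 tested genes (all but Nr3c1 and Tsc22d3) were lowest in the sham libraries, beside 7.63% of all genes tested there.

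Among related genes fixed as lists, 2 genes that vary with time of day passed the threshold in this comparison, and in no other list did a gene pass. Arntl, the core clock factor, was higher in astrocytes by 0.67 (SE 0.17, adjusted p = 0.0449), at 48.1 and 53.5 CPM in the sham libraries and 71.7, 53.4, 85.1 and 86.4 CPM in the TBI libraries. Ciart, a clock repressor, was lower in CA1-like neurons (log2 fold -1.10, SE 0.21, adjusted p = 0.0143), at 33.0 and 29.2 CPM against 14.96, 17.6, 13.4 and 13.5 CPM. The 14 clock genes summed to 1337 and 1328 CPM in sham astrocytes and 1148 to 1298 CPM in TBI astrocytes. A sum hides genes that move in opposite directions, and the 2 called genes had opposite signs, in different cell sets. The part of time of day in the folds of Fkbp5 and Zbtb16 was not tested.
Of 40 other genes induced by glucocorticoids, 36 were tested in astrocytes, with 25 higher and 11 lower (median 0.16), 22 in oligodendrocytes with 17 higher (median 0.27), 9 in OPC with 9 higher (median 0.60) and 36 in excitatory neurons with 16 higher (median -0.07). The median over all genes was within 0.01 of 0 in each. Their sum in oligodendrocytes was 1530 and 1779 CPM in the sham libraries and 1871 to 2007 CPM in the TBI libraries. Over all 13 cell sets 145 of 250 tests of this list were higher, 26 had an unadjusted p under 0.05, beside 5.28% of all genes, and 0 were called. Of the clock list 59 of 143 tests were higher and 23 had an unadjusted p under 0.05, with the 2 calls above. Receptor chaperones were higher in 85 of 128 tests, receptor coregulators in 85 of 183, steroid metabolism genes in 42 of 70, other KLF genes in 43 of 88, relatives and substrates of Sgk1 in 38 of 56 and immediate early genes in 32 of 99, with 0 called in each by edgeR and 5, 10, 2, 4, 6 and 11 at an unadjusted p under 0.05.

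The second comparison set VEGFC against GFP over 3 contexts, which were right sham, right TBI and left TBI hippocampus. None of the 9 genes passed the threshold in any of the 91 combinations, beside 0.0268% of all genes. At an unadjusted p under 0.05 there were 9 (9.89%), all higher with VEGFC, against 5.67% of all genes, of which 3.02% were higher. DESeq2 called 0 as well. The 7 that had the same direction in all 3 contexts are given here.
Zbtb16 in astrocytes, with the values given above, was higher with VEGFC in 3 of 3 contexts, by 0.35 (SE 0.11, adjusted p = 0.374 by edgeR). Nr3c2 in dentate granule-like neurons was at 868, 887 and 883 CPM in the GFP libraries and 871, 1030 and 995 CPM in the VEGFC libraries for sham right, TBI right and TBI left (0.15, SE 0.06, adjusted p = 0.64). The sham pair hardly differed, and the difference lay in the injured libraries. This subset pools excitatory clusters 2 and 3, at 637 and 1208 CPM of Nr3c2, and the part of their mix was not tested. In the interneuron subset Nr3c2 was at 256, 271 and 284 CPM with GFP and 278, 312 and 312 CPM with VEGFC (0.17, SE 0.08, adjusted p = 0.869).
Klf9 in dentate granule-like neurons was at 74.1, 71.1 and 78.6 CPM with GFP and 82.8, 97.0 and 83.8 CPM with VEGFC, without overlap (0.25, SE 0.10, adjusted p = 0.585). Fkbp5 in the interneuron subset was at 36.8, 28.8 and 39.1 CPM with GFP and 40.7, 46.0 and 47.2 CPM with VEGFC, also without overlap (0.38, SE 0.15, adjusted p = 0.752). Sgk1 in mixed neurons was at 38.3, 54.9 and 48.9 CPM with GFP and 68.0, 76.4 and 83.7 CPM with VEGFC (0.74, SE 0.23, adjusted p = 1.00), on 218 UMIs in all.
In excitatory neurons as a whole Nr3c2 was higher by 0.22 (SE 0.09, adjusted p = 0.739). With GFP, dentate granule-like nuclei were 645 of 1831, 655 of 2091 and 972 of 2339 excitatory nuclei, in the order of contexts above. With VEGFC they were 939 of 2812, 813 of 1840 and 585 of 1515. The part of the mix of clusters in this fold was not tested. Over the 9 classes all 3 GFP libraries lay below all 3 VEGFC libraries in 3 of 60 combinations (5%), beside 4.49% of all genes, and above them in 4 (6.67%), beside 6.16%, which is close to the background.
Of the related lists, 1 gene passed: Hsp90aa1, the chaperone that holds the receptor ready for hormone, was higher in oligodendrocytes by 0.71 (SE 0.16, adjusted p = 0.0136), at 88.0, 109 and 85.2 CPM with GFP and 140.2, 153 and 167 CPM with VEGFC. The summed 14 chaperones and cochaperones there were at 868, 894 and 955 CPM with GFP and 959.7, 1189 and 1156 CPM with VEGFC. The Hsp90aa1 call came from a fit with 8060 prior against 2 residual degrees of freedom, and it was not examined under the alternatives. Immediate early genes were lower with VEGFC in 70 of 99 tests, and 24 of the 99 had an unadjusted p under 0.05, beside 5.67% of all genes, with 0 called.

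The third comparison set the left, contralateral, against the right hippocampus after TBI, and shares its right libraries with the first. None of 91 combinations passed, beside 0.023% of all genes, and 2 (2.2%) had an unadjusted p under 0.05 against 3.57% of all genes, with 0 called by DESeq2. These were Zbtb16 in mixed neurons, at 29.9 and 21.5 CPM on the right and 49.9 and 38.5 CPM on the left with GFP and VEGFC (0.86, SE 0.38, adjusted p = 1.00), and Hsd11b1 in the interneuron subset, at 3.84 and 2.68 CPM on the right and 8.20 and 7.02 on the left (1.18, SE 0.50, adjusted p = 1.00), on 5 to 17 UMIs per library. Of the genes with higher values in right TBI than in right sham glia, Fkbp5 in microglia had 481 and 424 CPM on the left with GFP and VEGFC, near its right libraries, while Zbtb16 in OPC (89.3 CPM) and Ddit4 in astrocytes (14.5 CPM) were near or within the sham values in TBI GFP left. No sham left library was analysed here, so a difference between sides before injury cannot be told apart.

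The last comparison asked whether the fold of VEGFC over GFP differed between TBI and sham, with left and right TBI libraries of a vector taken as replicates and 1 library for each sham arm. Sgk1 in oligodendrocytes was the 1 gene called among 96 combinations (1.04%), beside 0.228% of all genes, and 17 (17.7%) had an unadjusted p under 0.05 against 7.38%. Sgk1 was at 387 CPM in Sham GFP right (interval 334 to 446), 278 in Sham VEGFC right (229.5 to 334), 404 (357 to 455) on the right and 417 (359 to 481) on the left after TBI with GFP, and 589 (527 to 656) on the right and 556 (501 to 616) on the left after TBI with VEGFC, on 115 to 373 UMIs. The level was thus lower with VEGFC in the sham pair and higher with VEGFC in both TBI pairs, and the 3 GFP libraries lay between 387 and 417 CPM.
The difference of the folds was 1.00 on the log2 scale (SE 0.23, adjusted p = 0.0114 by edgeR), positive in 2 of 2 pairs. The call was lost without TBI GFP right (adjusted p = 0.123), TBI VEGFC right (0.913) or TBI VEGFC left (0.0954), with DESeq2 (1.00) and with equal numbers of nuclei per library (0.82, adjusted p = 0.221), while the value without each of these libraries lay between 0.96 and 1.03. Neither sham library could be left out, and the sham fold rests on 1 library an arm. Its error is thus taken from the spread of the TBI libraries and of other genes. The spread of the TBI libraries is that between left and right of a vector, which may come from the same mice. In this fit edgeR's prior degrees of freedom were infinite against 2 residual ones, so the spread of other genes set nearly all of the error.
Other RNA in these oligodendrocytes moved between libraries too. Endothelial markers summed to 89.4 CPM in Sham VEGFC right and 115 in TBI GFP right, and to 17.9 to 19.8 CPM in the other 4. Without the nuclei that held an endothelial UMI, 4 to 25 per library, the difference was 1.10 (adjusted p = 0.00541, an alternative chosen after seeing the data). Choroid plexus markers were at 659, 967, 967, 536, 412 and 613 CPM in the order of libraries above. The part of this other RNA in the Sgk1 difference was not tested, beyond the value without endothelial UMIs. No nucleus held over 0.616% of the Sgk1 UMIs of oligodendrocytes.

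**Figure D4:**
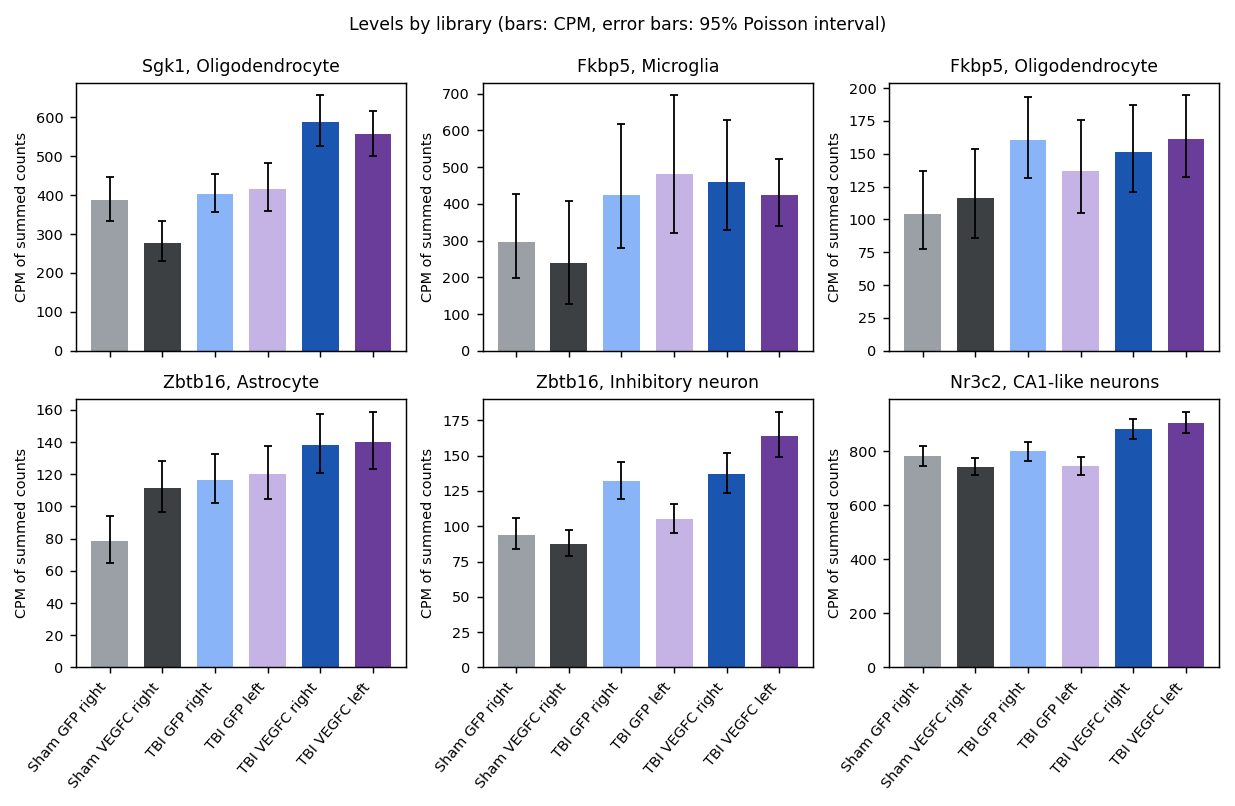
Levels by library (y axis, CPM of summed counts from 0, error bars are 95% Poisson intervals of the count) for 6 pairs of gene and cell set, with 1 bar for each library by injury, vector and side (x axis). Sgk1 in oligodendrocytes is lowest in Sham VEGFC right (278 CPM) and highest in both TBI VEGFC libraries (589 and 556 CPM), and Fkbp5 in microglia is lower in both sham libraries than in all 4 TBI libraries.

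The other combinations named in this comparison missed the adjusted threshold. Nr3c2 in CA1-like neurons was at 782, 799 and 744 CPM with GFP in sham right, TBI right and TBI left, and at 741, 881 and 905 CPM with VEGFC (difference of folds 0.34, SE 0.11, adjusted p = 0.212). The 2 injured VEGFC libraries were above the other 4. Zbtb16 in the same neurons was at 214, 224 and 213 CPM with GFP and 200.3, 242 and 255 CPM with VEGFC (0.33, SE 0.15, adjusted p = 0.473), and Klf9 at 69.8, 64.1 and 59.9 CPM with GFP and 65.8, 77.2 and 79.4 CPM with VEGFC (0.47, SE 0.22, adjusted p = 0.513).
In all 3 genes both injured VEGFC libraries were highest. In dentate granule-like neurons the difference for Nr3c2 was 0.21 (SE 0.10, adjusted p = 0.557). In excitatory neurons together it was 0.31 for Nr3c2, 0.26 for Zbtb16 and 0.36 for Klf9 (adjusted p = 0.433, 0.523 and 0.412). The part of the mix of clusters in these values, and in that of dentate granule-like neurons, was not tested. With only nuclei of a doublet score up to 0.05, Nr3c2 (0.40, adjusted p = 0.0362), Zbtb16 (0.55, adjusted p = 0.0131) and Klf9 (0.60, adjusted p = 0.0318) in excitatory neurons and Nr3c2 in CA1-like neurons (0.42, adjusted p = 0.0453) passed. This limit left 0 microglia, 0 fibroblasts and 2 mixed neurons in the library with the fewest, so it did not thin all classes alike. Whether it changed the mix of clusters among excitatory neurons was not tested.
Fkbp5 in astrocytes went the other way: VEGFC and GFP were at 80.0 and 52.9 CPM after sham, 79.6 and 95.1 CPM in TBI right and 80.7 and 103 CPM in TBI left (-0.85, SE 0.24, adjusted p = 0.245). All 3 VEGFC libraries were close to 80 CPM and the GFP libraries differed. Klf9 in astrocytes had a difference of 0.47 (SE 0.18, adjusted p = 0.478) and Zbtb16 in oligodendrocytes one of -0.58 (SE 0.26, adjusted p = 0.71).
The remaining ones rest on fewer counts: Hsd11b1 in excitatory (-1.06) and dentate granule-like neurons (-1.78), Tsc22d3 in inhibitory neurons (-1.75) and the interneuron subset (-1.86), and Nr3c1 (1.08) and Nr3c2 (0.92) in mixed neurons, each with an edgeR adjusted p of at least 0.27. Of the related lists, Errfi1, a feedback inhibitor of the EGF receptor induced by glucocorticoids, was the gene called in oligodendrocytes (1.56, SE 0.37, adjusted p = 0.0145), at 162 and 72.5 CPM after sham with GFP and VEGFC, 109 and 135 in TBI right and 121 and 157 in TBI left. Mt1, a metallothionein, was called in CA1-like neurons with the opposite sign (-1.37, SE 0.29, adjusted p = 0.00417), at 25.0 and 43.8 CPM after sham, 55.6 and 35.9 in TBI right and 46.1 and 30.5 in TBI left. The calls of Errfi1 and Mt1 share the limit of the sham arms given for Sgk1, and neither was examined under the alternatives.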

How the data were processed

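Libraries were made with the 10x Genomics 3′ kit, per the labels' protocols. The submitters' processing notes name Scanpy, Cell Ranger 7.0.1 and mm10, whose settings are not known here. The authors' deposited matrix holds UMI counts per gene and nucleus, with their classes and clusters. The deposited table also gives the percent of mitochondrial counts and a doublet score for each nucleus, computed by the authors. Its lowest nucleus has 1001 UMIs, its highest mitochondrial share is 0.9995% and its highest doublet score 0.09898, and no further nucleus was removed.

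Counts were summed per library and cell set (at least 20 nuclei in each library) and tested with edgeR 4.0.16 (quasi-likelihood, TMM scaling, filterByExpr) in R 4.3.3, with Benjamini-Hochberg adjustment over all genes of a cell set and a threshold of 0.05. The model held the vector and the context (right sham, right TBI or left TBI) as terms, and left 2 residual degrees of freedom. EdgeR's prior degrees of freedom carry the spread of other genes. In this model they were 7.46 in inhibitory neurons, 72.4 in astrocytes, 8060 in oligodendrocytes and infinite in choroid plexus and fibroblasts. The last comparison had injury, vector and their interaction, without side. The comparisons share libraries. Alternatives were DESeq2 1.42.0, limma-voom 3.58.1, other scalings, no filter, equal nuclei, a doublet limit of 0.05 and each library left out. Genes of the related lists were not examined under these alternatives. Tested on simulated data for VEGFC against GFP, a log2 change of 1 was recovered for 94% of changed genes in astrocytes (12627 genes) and 84% in microglia (1925 genes). Changes were put only into genes with a mean of at least 20 counts per library. The simulated spread followed the trend over genes, without an effect of context. These shares therefore do not hold for smaller folds, lower counts or the last comparison, which was not simulated.

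All 9 genes were named, with a fold where it passed the threshold, or had an unadjusted p under 0.05 and 1 direction in every matched pair of libraries. Of the related lists, genes past the threshold were named, and for each receptor the 3 genes most like it, of which 1 is not reported here. Genes, lists and neuron subsets were chosen with earlier results of these data known.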

Additional observations from a re-analysis of the deposited data

Results flagged for a closer look

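The VEGFC fold of Sgk1 in oligodendrocytes differed between TBI and sham libraries, by 1.00 on the log2 scale (SE 0.23, edgeR adjusted p = 0.0114). It was noted because the test of the difference itself passed its threshold. The sham fold rests on 1 library for each vector.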

How the results depend on the processing

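The numbers of the 9 genes past the threshold were small, so 1 call moved them. For TBI right against sham right the number was 0, and it was 1 with no filter (Zbtb16 in inhibitory neurons), 1 with limma-voom and 1 with equal nuclei (Sgk1 in oligodendrocytes in both), and 0 to 2 with each library left out: both of these without Sham GFP right, Fkbp5 in astrocytes without Sham VEGFC right, Sgk1 in oligodendrocytes without TBI GFP right, and Zbtb16 in inhibitory neurons without either left TBI library. For VEGFC against GFP it was 0, and 0 to 1 with each library left out (Sgk1 in oligodendrocytes without either sham library). For left against right it was 0 under all alternatives run. For the difference of the VEGFC fold it was 1, and it was 0 with DESeq2, 0 with equal nuclei, 5 with a doublet score up to 0.05, and 0 to 1 with each TBI library left out. The difference for Sgk1 in oligodendrocytes was 1.00 with DESeq2, 0.82 with equal nuclei and 0.96 to 1.03 with each TBI library left out. The cause of these moves was not tested. Of 473 alternative values of the 38 named folds, 455 kept direction and side of the threshold, 13 passed it newly, 5 no longer passed and 0 changed sign. Only 1 of the 38, the difference for Sgk1 in oligodendrocytes, passed in the main fit, and the 5 were all of it. For the other folds, keeping their side means only that they still missed the threshold, also where the fold shrank to near 0. The class with the highest level was the same for all 9 genes with nuclei weighted equally and with each library left out. With the doublet limit it was the same among the classes that kept at least 20 nuclei in every library. Mixed neurons, microglia and fibroblasts did not, so the highest class of Nr3c1, Fkbp5 and Klf9 was not compared there. Under the doublet limit, mixed neurons, microglia and fibroblasts had too few nuclei to be fitted, and the interaction could not be fitted without a sham library. No pairing by animal was possible, because the labels do not say whether left and right hippocampi came from the same mice. The context term already matches libraries by injury and side, and without it the number for VEGFC against GFP was 0. Depth limits Hsd11b1, Tsc22d3 and Ddit4 in mixed neurons, OPC and choroid plexus, and most of the 9 genes in microglia and fibroblasts, where counts per library are small.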
